A study of Mus musculus with 6 samples.

Results

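Glycolysis splits glucose into pyruvate and lactate in the cytosol, and its transcripts were compared here between muscle of wild-type mice and of a mouse model of spinal and bulbar muscular atrophy (SBMA). The genes were chosen by name and comprised 32 symbols: the enzymes of the pathway with their isoforms, the enzymes that make and remove the allosteric activator of phosphofructokinase, the fructose bisphosphatases, lactate dehydrogenase, the lactate transporters and the glycerol phosphate dehydrogenases. Of these, 31 had a row in a table of 27131 genes. Pyruvate kinase is listed there under its older symbol Pkm2 and is called Pkm here, and Tigar had no row under that symbol. The muscle was the levator ani/bulbocavernosus (LA/BC), a pelvic muscle group of the male mouse that depends on androgen. There were 3 WT mice and 3 mice labelled 113Q, which carry a knock-in allele; as background, SBMA is an inherited disease of motor neurons and muscle. All were 14 weeks old, kept on standard chow, and each library came from a separate mouse. The labels describe each group by its genotype alone, with no strain, litter or batch. A knock-in allele is present in all tissues of the animal, so the comparison does not separate effects in muscle from those in nerve or testis.

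The pathway begins when hexokinase traps glucose in the cell as its phosphate. Phosphofructokinase commits the sugar to breakdown, aldolase cleaves it, the lower steps yield ATP, and lactate dehydrogenase regenerates the NAD+ that keeps the pathway running. Fast skeletal muscle fibres draw much of their ATP from this route and express their own isoforms at several steps, such as Pfkm, Pgam2 and Eno3, while most other cells use Pfkl, Pgam1 and Eno1.

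The estimated counts of a library totalled 43581087 to 73873481, least in WT mouse 1. Levels are given as CPM, which are library-scaled counts that use TMM factors, and changes as 113Q relative to WT from edgeR's quasi-likelihood test with Benjamini-Hochberg adjustment over 16960 genes (adjusted p threshold 0.05). TMM factors were between 0.768 and 0.794 in WT and between 1.26 and 1.32 in 113Q, so that scaling and genotype cannot be told apart. With library totals in place of these factors the middle of the distribution of all genes tested moved by 0.72 on the log2 scale, and each change here is relative to the other genes. A list of 12 skeletal myofibre transcripts summed to 170519, 195413 and 176769 CPM in the WT mice and 41157, 49647 and 49629 in the 113Q mice, with 10 lower, 1 higher (Tnnt1, slow troponin T) and none at 0 in all libraries. In bulk muscle, fewer fibres and less RNA per fibre cannot be told apart. Summed epithelial markers were at 1.95, 53.6 and 2.29 CPM in the WT mice and 1.21, 46.3 and 89.3 in the 113Q mice, so that WT mouse 2 and 113Q mice 2 and 3 stand apart. Calls that were lost without these libraries are named beside the gene. That fit leaves 113Q mouse 1 alone in its group. A call lost through fewer mice cannot be told apart there from one lost through these transcripts.

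In 113Q muscle, 18 of the 30 genes tested were lower and 6 were higher. Lower were forms abundant in muscle (Hk2, Pfkm, Fbp2, Aldoa, Pgam2, Eno3, Ldha and Slc16a3), the enzymes Gpi1, Tpi1, Gapdh, Pgk1 and Pkm, and Pfkfb1, Pfkfb3, Pfkfb4, Slc16a1 and Gpd1. The falls ran from 1.22 times in Pfkfb4 to 7.20 times in Gpd1. Higher were Hk1, Pfkl, Pfkp, Pgam1, Eno1 and Gpd1l, which are expressed in many tissues outside muscle, by 1.26 to 3.38 times. Across all genes tested, 18.1% were called lower and 16.5% higher, 34.6% in all. The 6 higher of 30 members are near the share called higher among all genes. Of the 30 members tested, 15 were called lower by 2 times or more, against 5.22% of all genes tested. Called higher by as much were 2 of the 30, Hk1 and Pfkl, against 5.33% of all genes tested, which is a similar share. Of the 30 tested, 18 were lower and 6 higher without overlap between the 3 mice of each group, against 24.8% and 25.1% of all genes tested. These are the called members, so this count is not separate from the calls. The median log2 fold change was -0.84 over the members tested and 0.01 over all genes tested. Scaled to library totals alone, 14 members were lower and 10 higher, with a median of -0.12. Gpi1, Pkm and Pfkfb4 then had positive log2 fold changes.

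**Figure D1:**
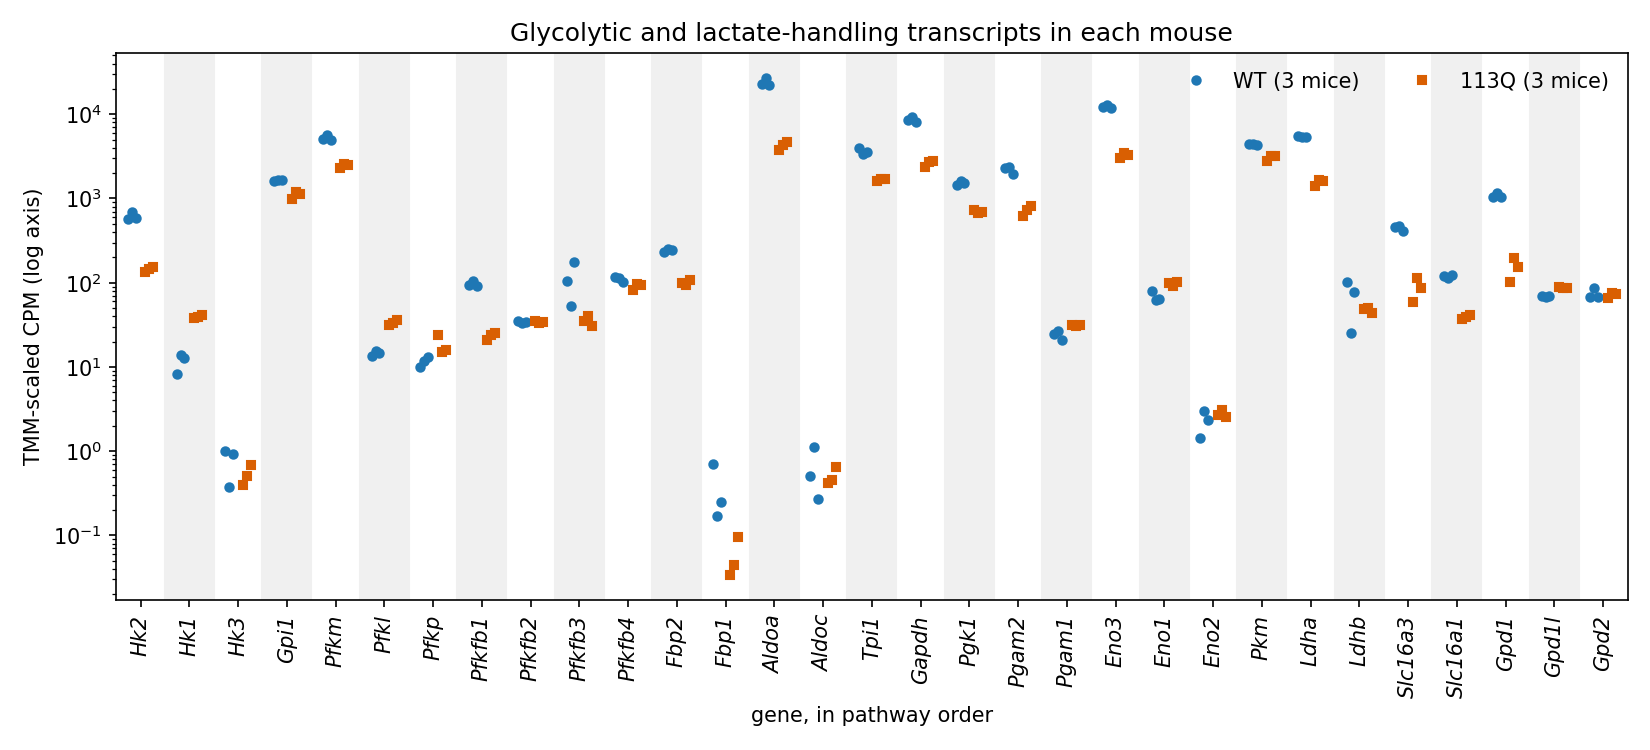
TMM-scaled CPM (log axis) of the 31 genes with a row, in pathway order, with 1 circle per WT mouse and 1 square per 113Q mouse. Squares lie below circles for most muscle forms such as Hk2, Aldoa and Gpd1, and above them for Hk1, Pfkl, Pgam1, Eno1 and Gpd1l.

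The share of all counts held by the 31 genes does not depend on the TMM factors. It was 5.53%, 5.93% and 5.45% in the WT mice and 2.72%, 2.97% and 2.96% in the 113Q mice. The 113Q libraries all lay below the WT libraries, with means of 5.64 ± 0.255% and 2.88 ± 0.142% (SD, n = 3 each), 1.96 times lower. The exact two-sided permutation p was 0.1, the smallest that 3 against 3 mice allow. Aldoa, the muscle aldolase, alone held 33.3% of the genes' counts in WT and 18.8% in 113Q. Without Aldoa the share went from 3.76% to 2.34%. With each library's own 20 most abundant genes removed, it was 3.08%, 4.23% and 3.07% in the WT mice and 2.12%, 1.85% and 1.86% in the 113Q mice. Those 20 genes held Aldoa and Eno3 in every library, Gapdh in WT mice 1 and 3 and Pkm in 113Q mice 2 and 3, so these values are not over the same members. Beside the lower share of Aldoa, Pkm went from 6.09% to 13.6% of the genes' counts, Pfkm from 7.22% to 10.95%, Tpi1 from 5.06% to 7.51%, Gpi1 from 2.29% to 4.85% and Pgk1 from 2.11% to 3.13%. All 5 were called lower in the fit with TMM factors. As a percent of all counts, Pfkm went from 0.407% to 0.316%, Tpi1 from 0.285% to 0.216% and Pgk1 from 0.119% to 0.0900%. By that measure Pkm rose from 0.343% to 0.392% and Gpi1 from 0.129% to 0.140%.

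**Figure D2:**
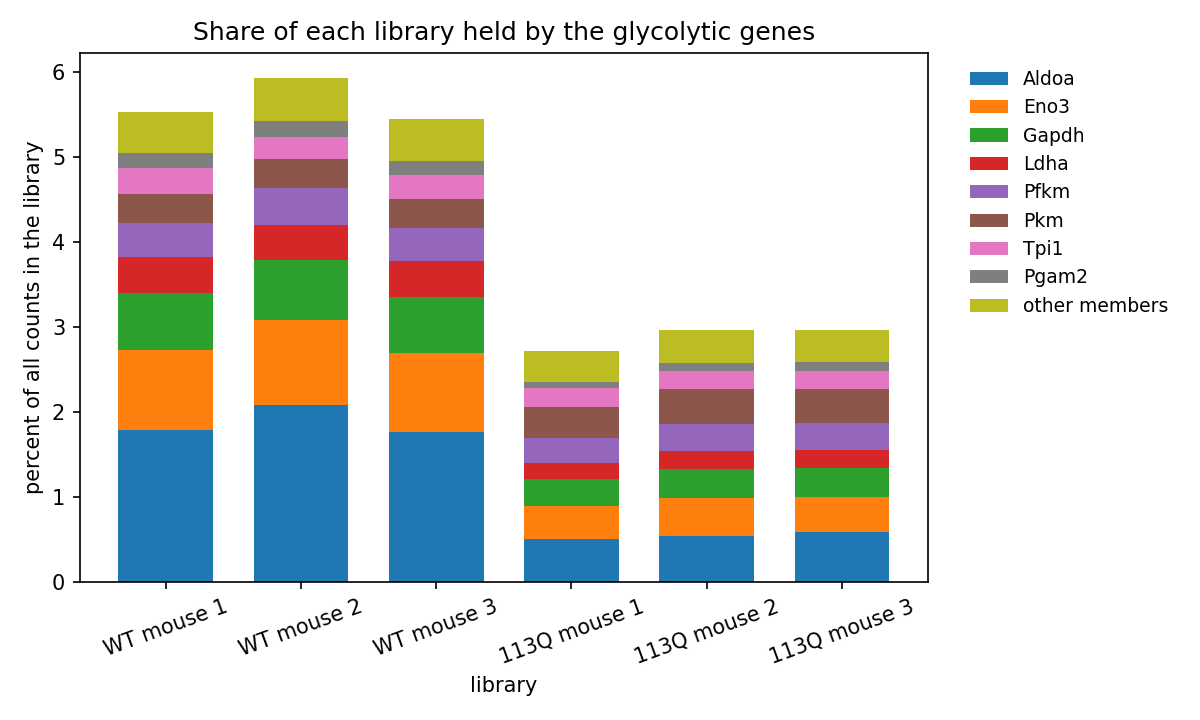
Percent of all counts in each of the 6 libraries that the 31 genes held, stacked for the 8 with the largest WT share and the others together. The bars reach 5.45% to 5.93% in WT and 2.72% to 2.97% in 113Q, and Aldoa is the largest segment in each WT library.

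At the hexokinase step the muscle form fell and the widespread form rose. Hk2, the insulin-responsive hexokinase of muscle, was at 570.4, 693 and 589 CPM in the WT mice and 134, 144 and 154 in the 113Q mice. Every 113Q mouse was below every WT mouse, and Hk2 fell 4.28 times (log2 fold change -2.10, SE 0.11, adjusted p = 1.10e-05). Hk1, the form of brain and red cells that most tissues express, was at 8.23, 14.0 and 12.9 CPM in the WT mice and 38.5, 39.7 and 41.3 in the 113Q mice. The 3 113Q mice lay close together and above all WT mice, and Hk1 rose 3.38 times (log2 fold change 1.76, SE 0.18, adjusted p = 0.000334). Per kilobase of exon, Hk2 made up 98.5 ± 0.238% of the 3 hexokinases in WT and 83.4 ± 0.391% in 113Q (SD, n = 3 each), and Hk1 went from 1.30% to 16.1%. With the length of the basic coding transcripts only, Hk1 went from 2.13% to 24.1%. Hk3, a hexokinase of blood cells, was at 1.007, 0.377 and 0.924 CPM in the WT mice and 0.402, 0.514 and 0.686 in the 113Q mice; the groups overlapped and it was not called (adjusted p = 0.407). Unc5a, a gene on the opposite strand whose exons overlap Hk3, had means of 7.78 CPM in WT and 10.6 CPM in 113Q, so the division of reads between them is uncertain. Gpi1, which converts glucose phosphate to fructose phosphate, was at 1632, 1662 and 1670.2 CPM in the WT mice and 974, 1181 and 1120.1 in the 113Q mice and fell 1.52 times (log2 fold change -0.60, SE 0.10, adjusted p = 0.00199), but with library totals its log2 fold change was 0.12.

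The 250 bases before the Hk2 start site are shown because Hk2 fell in all 113Q mice and this window holds the hypoxia response core, the letters bound by HIF. The sequence is the RefSeq window on GRCm38.p6 at chr6:82774455-82774704, minus strand, written 5′ to 3′, with matches to ACGTG on either strand in capitals.
Hk2: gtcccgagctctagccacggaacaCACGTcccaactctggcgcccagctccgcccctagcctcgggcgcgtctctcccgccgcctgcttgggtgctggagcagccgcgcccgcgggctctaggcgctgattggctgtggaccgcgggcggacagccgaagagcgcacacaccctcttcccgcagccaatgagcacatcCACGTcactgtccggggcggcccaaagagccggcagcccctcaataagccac
It holds 2 matches to this core and 25 CpG sites. ACGTG was found in the windows of 18.5% of all genes.

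At phosphofructokinase, the committing step, the muscle subunit fell and the other subunits rose. Pfkm, the muscle subunit, was at 5046, 5663 and 4976 CPM in the WT mice and 2298, 2555 and 2530.5 in the 113Q mice and fell 2.12 times (log2 fold change -1.09, SE 0.10, adjusted p = 0.000114). Pfkl, the liver subunit, was at 13.6, 15.5 and 14.5 CPM in the WT mice and 31.7, 32.9 and 35.7 in the 113Q mice. All 113Q mice were above all WT mice, and Pfkl rose 2.30 times (log2 fold change 1.201, SE 0.10, adjusted p = 7.42e-05). Pfkp, the platelet subunit, was at 9.92, 11.7 and 13.1 CPM in the WT mice and 23.9, 15.1 and 15.9 in the 113Q mice, with 113Q mouse 1 well above the other 113Q mice. The groups did not overlap and Pfkp rose 1.58 times (log2 fold change 0.66, SE 0.20, adjusted p = 0.0327). This call was lost without WT mouse 1 (adjusted p = 0.109), WT mouse 2 (0.0793) or 113Q mouse 1 (0.0690), and adjusted p ranged from 0.000694 to 0.109 over all settings. Pitrm1, a gene on the opposite strand whose exons overlap Pfkp, had means of 66.7 CPM in WT and 66.1 CPM in 113Q. Both are above the level of Pfkp, and the division of reads between the 2 genes is uncertain. Smooth muscle and pericyte markers other than Des summed to 186, 501 and 651 CPM in the WT mice and 2467, 1569 and 1106 in the 113Q mice. As for Pfkp, WT mouse 1 was lowest and 113Q mouse 1 highest in this sum, and the part of these cells in the result was not tested. Not all markers in the sum rose, since Rgs5 and Pdgfrb had overlapping groups (log2 fold change 0.10 and -0.20) and were not called. Pfkm still made up 99.8% of the 3 subunits per kilobase in WT and 99.1% in 113Q.

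The 4 bifunctional Pfkfb enzymes set the level of the fructose bisphosphate that activates phosphofructokinase, and they did not change together. Pfkfb1, the liver and muscle form, was at 94.0, 106 and 90.9 CPM in the WT mice and 20.9, 23.7 and 25.3 in the 113Q mice, with no overlap, and fell 4.16 times (log2 fold change -2.06, SE 0.10, adjusted p = 1.04e-05). Apex2, which overlaps Pfkfb1 on the opposite strand, had means of 7.02 CPM in WT and 2.98 CPM in 113Q. Pfkfb2, the heart form, was nearly level at 35.0, 33.0 and 33.8 CPM in the WT mice and 34.7, 33.3 and 33.7 in the 113Q mice. Its log2 fold change was -0.001 with SE 0.07 and adjusted p = 0.994. Pfkfb3, an inducible form of many tissues including fat, was at 106, 52.8 and 178 CPM in the WT mice and 34.9, 40.5 and 30.3 in the 113Q mice. WT mouse 3 was highest and WT mouse 2 lowest of the WT mice, and the groups did not overlap. Pfkfb3 fell 3.19 times (log2 fold change -1.67, SE 0.47, adjusted p = 0.0465). That call was lost without WT mouse 1 (adjusted p = 0.112) or without 113Q mouse 1 (0.121), 2 (0.118) or 3 (0.139), with a range of 0.00201 to 0.139 over all settings. Summed adipocyte markers were at 429, 209.8 and 684 CPM in the WT mice and 206, 340.1 and 415 in the 113Q mice, lowest of the WT mice in WT mouse 2, as Pfkfb3 was, and the part of fat in this result was not tested. Of the 7 adipocyte markers tested, 1 was lower, 0 were higher and none was at 0 in all libraries.

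Pfkfb4 was at 116, 113 and 101 CPM in the WT mice and 81.7, 95.6 and 93.2 in the 113Q mice and fell 1.22 times (log2 fold change -0.28, SE 0.09, adjusted p = 0.0434). The fall was the smallest of those called. With library totals its log2 fold change was 0.43, below the shift of 0.72 in all genes, and it was called higher (adjusted p = 0.00166). Without WT mouse 1 or 2 the adjusted p was 0.108 or 0.0917, and without 113Q mouse 1, 2 or 3 it was 0.122, 0.0679 or 0.0938. Over all settings the adjusted p ranged from 0.00166, the library totals fit with the opposite direction, to 0.400. Per kilobase, Pfkfb4 went from 34.3% to 55.0% of the 4 Pfkfb transcripts and Pfkfb1 from 36.8% to 17.2%. Without the 3 libraries with epithelial transcripts, Pfkfb3 and Pfkfb4 did not pass, at log2 fold changes of -2.03 and -0.41.

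The fructose bisphosphatases run the committing step backwards, toward glucose or glycogen. Fbp2, the muscle form, was at 232, 253 and 243 CPM in the WT mice and 99.9, 94.1 and 109 in the 113Q mice and fell 2.40 times (log2 fold change -1.27, SE 0.09, adjusted p = 3.64e-05). Its groups did not overlap. Fbp1, the liver and kidney form, had estimated counts of 24, 9 and 13 in WT and 3, 4 and 9 in 113Q. It did not pass the filter on low counts and was not tested.

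From aldolase to phosphoglycerate kinase, all 4 abundant transcripts fell, Aldoa most. Aldoa, which splits fructose bisphosphate into the triose phosphates, was at 23108, 27035 and 22243 CPM in the WT mice and 3805, 4272 and 4622 in the 113Q mice. It held more counts than any other member in every library and fell 5.70 times (log2 fold change -2.51, SE 0.12, adjusted p = 9.70e-06). Per kilobase of exon, Aldoa went from 6504 to 1141 CPM and was below Eno3, which went from 7074 to 1864 CPM. With the basic coding length the WT order turned, at 9407 CPM for Aldoa and 7856 CPM for Eno3. Exons of Aldoa overlap Fam57b on the opposite strand, whose mean went from 62.9 to 2.63 CPM. Aldoc, the aldolase of brain, was under 2 CPM in all mice with overlapping groups (adjusted p = 0.680). Tpi1, which interconverts the triose phosphates, was at 3930.4, 3419 and 3608 CPM in the WT mice and 1626, 1715 and 1717 in the 113Q mice and fell 2.17 times (log2 fold change -1.12, SE 0.09, adjusted p = 7.99e-05). Gapdh, the dehydrogenase that reduces NAD+, was at 8625, 9205 and 8189.7 CPM in the WT mice and 2337, 2698 and 2787 in the 113Q mice. Gapdh is often used as a reference transcript, and here it fell 3.33 times (log2 fold change -1.73, SE 0.10, adjusted p = 2.24e-05). Pgk1, the first ATP-yielding step, was at 1462, 1601 and 1509.8 CPM in the WT mice and 729, 675 and 699 in the 113Q mice and fell 2.17 times (log2 fold change -1.12, SE 0.08, adjusted p = 6.06e-05). In none of these 4 genes did the groups overlap.

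**Figure D3:**
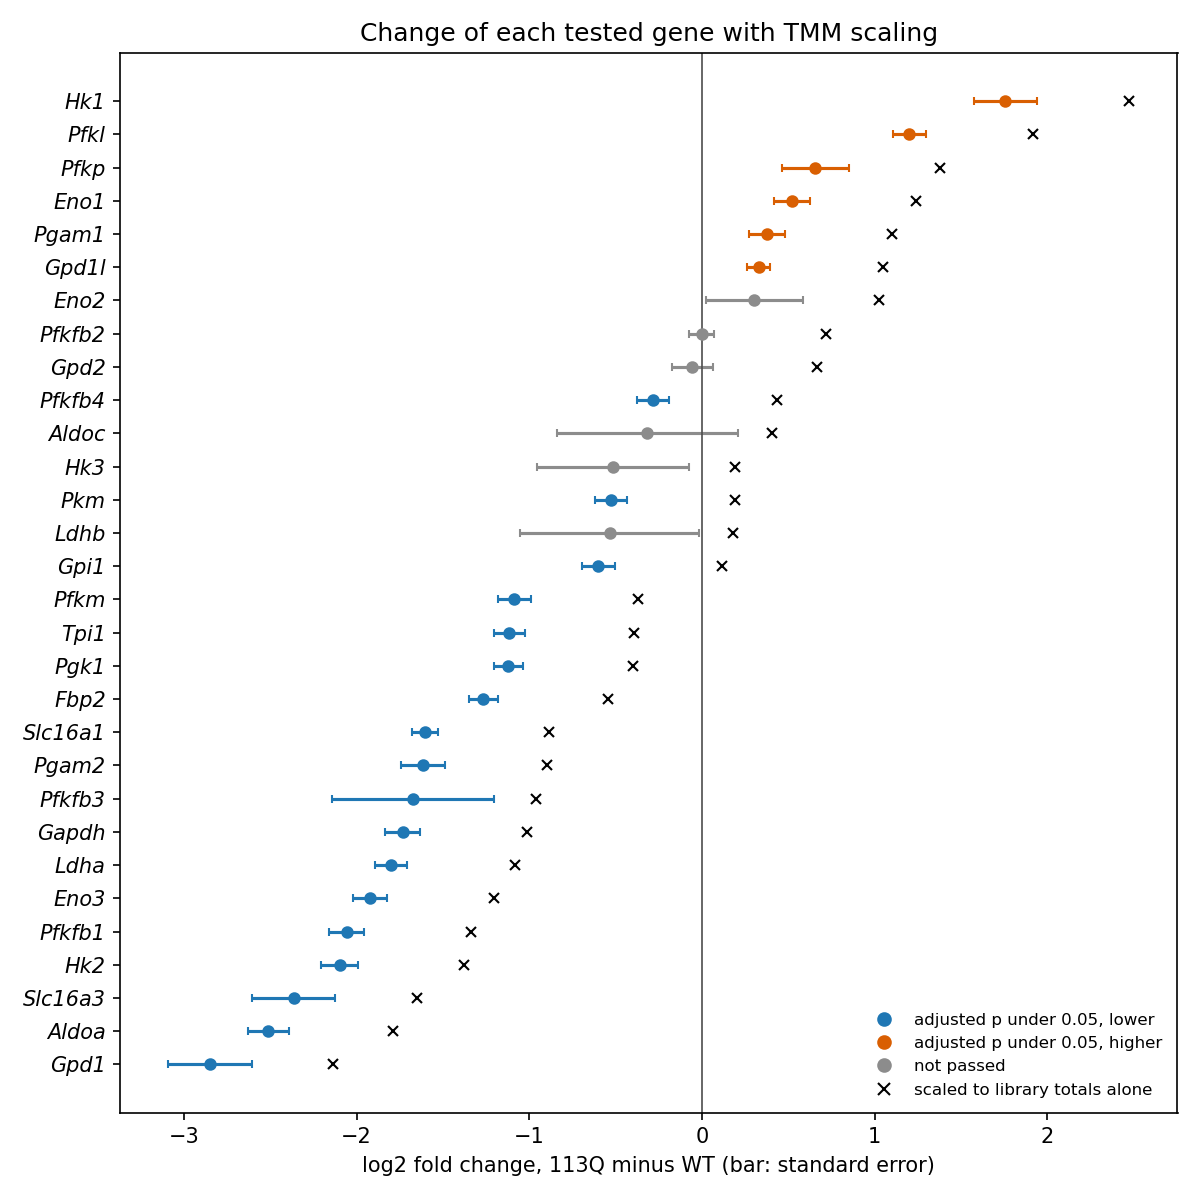
Log2 fold change of each of the 30 tested genes, 113Q minus WT, with its standard error as a bar and colour for the edgeR call; crosses give the value scaled to library totals alone. Gpd1 is lowest at -2.85 and Hk1 highest at 1.76, and the crosses of Gpi1, Pfkfb4 and Pkm lie above 0.

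At phosphoglycerate mutase, which moves the phosphate group within the molecule, the muscle and widespread forms went in opposite directions. Pgam2, the muscle form, was at 2301, 2352 and 1973 CPM in the WT mice and 620.0, 726 and 816 in the 113Q mice and fell 3.07 times (log2 fold change -1.62, SE 0.13, adjusted p = 6.83e-05). Pgam1, the widespread form, was at 24.8, 26.6 and 21.02 CPM in the WT mice and 31.4, 30.7 and 31.8 in the 113Q mice. The 3 113Q mice were level with each other and above all WT mice, and Pgam1 rose 1.30 times (log2 fold change 0.38, SE 0.10, adjusted p = 0.0215). The Pgam1 call was lost without WT mouse 3 (adjusted p = 0.0642), 113Q mouse 2 (0.0507) or 113Q mouse 3 (0.0597). It was also lost without the 3 libraries with epithelial transcripts, at a log2 fold change of 0.46. The adjusted p of Pgam1 ranged from 3.56e-05 to 0.160 over all settings. Pgam2 made up 99.5% of the step per kilobase in WT and 98.2% in 113Q.

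The windows before the start sites of these 2 genes are shown because the pair moved apart and the windows differ in motifs and CpG sites. Both are RefSeq windows on GRCm38.p6, written 5′ to 3′: Pgam2 at chr11:5803797-5804046 on the minus strand and Pgam1 at chr19:41911621-41911870 on the plus strand. Capitals mark E-boxes (CANNTG), a match to the binding motif of MEF2, a muscle transcription factor, and the hypoxia response core ACGTG, on either strand.
Pgam2: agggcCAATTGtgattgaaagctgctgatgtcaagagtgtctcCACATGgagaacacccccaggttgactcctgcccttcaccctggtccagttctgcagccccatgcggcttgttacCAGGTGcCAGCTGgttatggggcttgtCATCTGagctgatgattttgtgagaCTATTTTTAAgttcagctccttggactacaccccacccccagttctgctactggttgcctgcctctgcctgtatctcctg
Pgam1: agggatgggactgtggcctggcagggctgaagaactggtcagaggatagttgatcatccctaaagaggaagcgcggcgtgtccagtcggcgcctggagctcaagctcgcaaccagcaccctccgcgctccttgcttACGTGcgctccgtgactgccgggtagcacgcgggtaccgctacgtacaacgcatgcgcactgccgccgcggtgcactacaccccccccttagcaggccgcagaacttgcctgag
The Pgam2 window held 5 E-boxes, the motif bound by myogenic factors, 1 MEF2 match and 1 CpG site. The Pgam1 window held no E-box, 1 ACGTG match and 22 CpG sites. By each gene's window with the most CpG sites, 1 was the fewest of 17 lower members and 22 the most of 6 higher members. The medians of these groups were 17 and 15, so this pair lies at the extremes. A match describes the letters only.

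Enolase, the next step, also had its muscle form lower and its widespread form higher. Eno3, the muscle enolase, was at 12117, 13049 and 11739 CPM in the WT mice and 3001, 3485 and 3241 in the 113Q mice and fell 3.79 times (log2 fold change -1.92, SE 0.10, adjusted p = 1.13e-05). Eno1, the widespread form, was at 79.0, 62.3 and 64.9 CPM in the WT mice and 100.3, 92.6 and 103 in the 113Q mice and rose 1.44 times (log2 fold change 0.52, SE 0.10, adjusted p = 0.00571). Eno1 has a near-identical copy in the mouse genome, so the division of its reads is uncertain. Its call was lost without the 3 libraries with epithelial transcripts, at a log2 fold change of 0.48. Eno2, the neuronal enolase, was between 1.42 and 3.12 CPM with overlapping groups (adjusted p = 0.442). Pkm, which makes pyruvate and ATP, was at 4444, 4494 and 4281 CPM in the WT mice and 2768, 3219 and 3179 in the 113Q mice. All 113Q mice were below all WT mice and Pkm fell 1.44 times (log2 fold change -0.53, SE 0.09, adjusted p = 0.00316), a smaller change than those of Aldoa, Gapdh and Eno3. With library totals its log2 fold change was 0.19. The row holds all Pkm transcripts, so the muscle and widespread splice forms could not be compared.

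Ldha and both lactate transporters fell, while the difference of Ldhb did not pass the test. Ldha, the subunit that predominates in fast muscle and favours lactate formation, was at 5578, 5397 and 5320.0 CPM in the WT mice and 1419, 1657 and 1598 in the 113Q mice and fell 3.49 times (log2 fold change -1.80, SE 0.09, adjusted p = 1.29e-05). Ldhb, the heart subunit, was at 103, 25.5 and 76.7 CPM in the WT mice and 48.4, 49.5 and 43.3 in the 113Q mice, with WT mouse 2 below all 113Q mice. Its log2 fold change was -0.53 with SE 0.52 and did not pass (adjusted p = 0.484). Without WT mouse 2 the log2 fold change of Ldhb was -0.93 with adjusted p = 0.00199, and adjusted p ranged from 0.00199 to 0.884 over all settings. WT mouse 2 also had the lowest summed adipocyte markers of the WT mice (values above), whose part was not tested. Slc16a3 (MCT4), the lactate exporter of fast fibres, was at 453, 474 and 409 CPM in the WT mice and 58.7, 114 and 86.3 in the 113Q mice. The 113Q mice differed among themselves, all below WT, and Slc16a3 fell 5.15 times (log2 fold change -2.36, SE 0.24, adjusted p = 0.000606). Slc16a1 (MCT1), the widespread carrier that also takes lactate up, was at 119, 115 and 123 CPM in the WT mice and 37.1, 39.4 and 41.2 in the 113Q mice with little spread and fell 3.04 times (log2 fold change -1.60, SE 0.08, adjusted p = 9.70e-06). Slc16a3 made up 75.6% of the 2 carriers per kilobase in WT and 63.7% in 113Q.

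The Slc16a1 window is shown because it had 37 CpG sites, the most of any window of a lower member. It is the RefSeq window on GRCm38.p6 at chr3:104638414-104638663, plus strand, 5′ to 3′, and the capitals mark CACGTG, which is an E-box and holds the core ACGTG on each strand.
Slc16a1: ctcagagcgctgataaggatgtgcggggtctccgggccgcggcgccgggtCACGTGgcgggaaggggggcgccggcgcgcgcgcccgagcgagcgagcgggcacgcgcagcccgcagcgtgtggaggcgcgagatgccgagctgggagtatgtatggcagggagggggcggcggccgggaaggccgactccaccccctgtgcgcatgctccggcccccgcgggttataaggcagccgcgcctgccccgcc

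The glycerol phosphate dehydrogenases link glycolysis to lipid synthesis and carry electrons of NADH into the mitochondrion. Gpd1, the cytosolic enzyme, was at 1055, 1173 and 1048 CPM in the WT mice and 102, 198 and 155 in the 113Q mice. Each 113Q mouse was far below each WT mouse, and Gpd1 fell 7.20 times (log2 fold change -2.85, SE 0.24, adjusted p = 0.000259), the deepest fall of the members. Gpd1l, a related cytosolic enzyme, was at 68.9, 67.9 and 69.9 CPM in the WT mice and 88.1, 85.9 and 85.6 in the 113Q mice, with little spread in either group. It rose 1.26 times (log2 fold change 0.33, SE 0.07, adjusted p = 0.00640, range 1.59e-05 to 0.184 over all settings). The call was lost without the 3 libraries with epithelial transcripts, at a log2 fold change of 0.34. Gpd1l went from 3.56% to 26.0% of the 2 cytosolic forms per kilobase. Gpd2, the mitochondrial enzyme that completes the shuttle, was at 67.6, 87.5 and 68.1 CPM in the WT mice and 65.7, 76.3 and 73.0 in the 113Q mice with overlapping groups, and its difference did not pass (log2 fold change -0.05, SE 0.12, adjusted p = 0.752). Tigar, a phosphatase that lowers the activator of phosphofructokinase, is outside the count above. A row named 9630033F20Rik, which RefSeq gives as a synonym of Tigar, was at 173, 175 and 169 CPM in the WT mice and 80.5, 73.1 and 71.0 in the 113Q mice, lower in all 113Q mice, and fell 2.30 times (log2 fold change -1.201, SE 0.08, adjusted p = 3.20e-05).

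Ratios of paired genes within a library do not depend on the scaling. The 13 pairs have the form known as abundant in muscle written first, or join the arms of a step. Of these pairs, 11 had lower ratios in every 113Q mouse than in any WT mouse and 2 overlapped. The pairs are not independent, since Pfkm, Eno3 and Gpd1 recur among them. How often other pairs of genes separate the groups was not computed. The log2 ratio of Hk2 to Hk1 counts was 6.11, 5.63 and 5.51 in WT and 1.80, 1.86 and 1.90 in 113Q, a difference of -3.89 or 14.9 times lower. For Gpd1 to Gpd1l it was 3.94, 4.11 and 3.91 in WT and 0.21, 1.21 and 0.86 in 113Q, 9.37 times lower. In both pairs the first gene fell and the second rose. Eno3 to Eno1 was 7.26, 7.71 and 7.50 in WT and 4.90, 5.23 and 4.97 in 113Q, 5.48 times lower. Pfkm to Pfkl was 8.54, 8.51 and 8.42 in WT and 6.18, 6.28 and 6.15 in 113Q, 4.88 times lower. Pgam2 to Pgam1 was 6.54, 6.47 and 6.55 in WT and 4.30, 4.56 and 4.68 in 113Q, 4.01 times lower. In these 3 pairs too, the muscle form fell and the widespread form rose. The other pairs without overlap were Gpd1/Gpd2 (difference -2.85), Aldoa/Aldoc (-2.40), Eno3/Eno2 (-2.29), Pfkm/Pfkp (-1.72), Ldha/Ldhb (-1.49) and Slc16a3/Slc16a1 (-0.81). Among these, Gpd2, Aldoc, Eno2 and Ldhb were not called, and Slc16a3 and Slc16a1 both fell. Each of the 11 had an exact two-sided permutation p of 0.1, the smallest possible, and 0.118 after adjustment over the 13 pairs, so none passed 0.05. Ldha/Ldhb was -0.89 without WT mouse 2. Fbp2/Fbp1 was 1.199 (exact permutation p = 0.2) and 0.58 without WT mouse 1, on few Fbp1 counts. Pfkfb1/Pfkfb3 was -0.54 (exact permutation p = 0.6), -0.02 without WT mouse 2 and -1.01 without WT mouse 3.

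**Figure D4:**
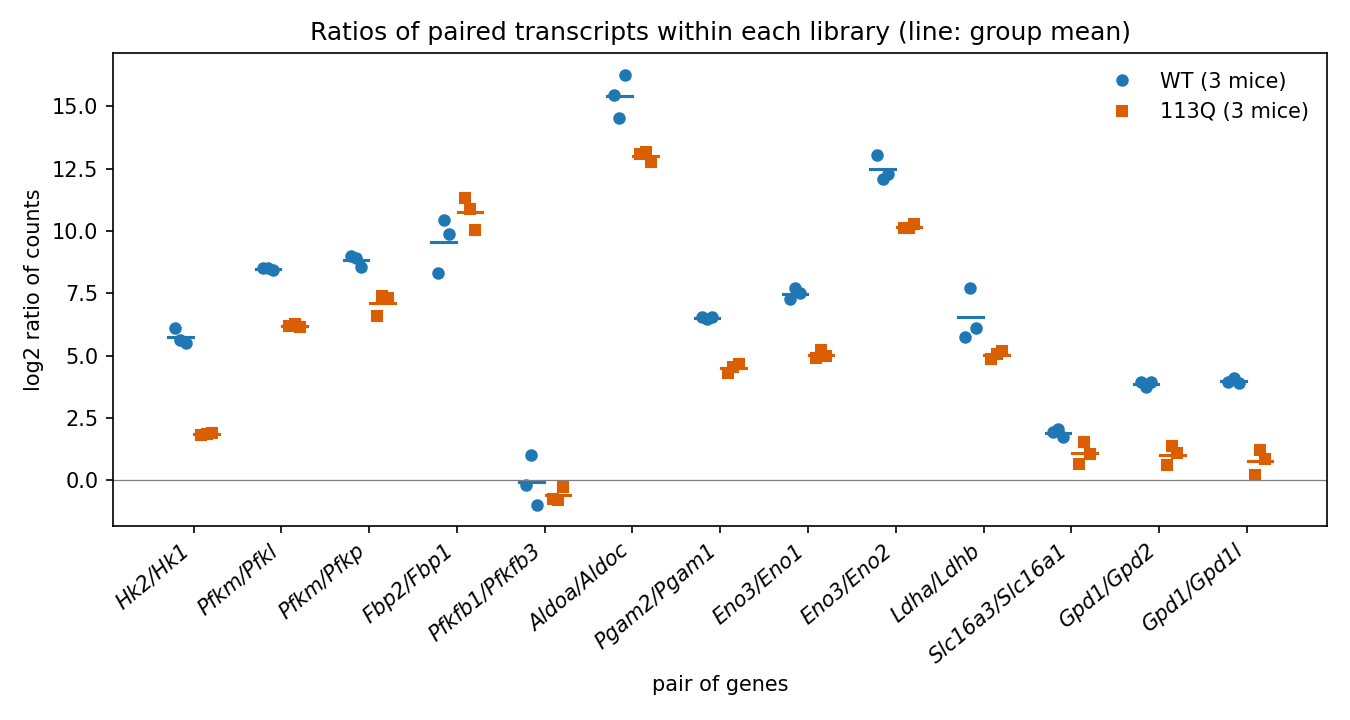
Log2 ratio of counts for 13 pairs of genes in each mouse (circles WT, squares 113Q), with a line at each group mean. In 11 pairs all squares lie below all circles, widest for Hk2/Hk1 at -3.89, while Fbp2/Fbp1 and Pfkfb1/Pfkfb3 overlap.

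RefSeq windows of 250 bases before the start were available for 30 of the 31 genes (not Gpd1) and for 27025 genes in all. With matches on both strands counted, ACGTG occurred in 10 of 17 lower and 2 of 6 higher members, against 18.5% of all genes. GCGTG, the other form of the hypoxia core, occurred in 8 of 17 lower and 6 of 6 higher members, against 30.9% of all genes. The 6 higher members with GCGTG are Hk1, Pfkl, Pfkp, Pgam1, Eno1 and Gpd1l. E-boxes (CANNTG) occurred in 13 of 17 lower and 4 of 6 higher members, against 69.3% of all genes. The MEF2 motif occurred in 2 of 17 lower and 0 of 6 higher members, against 3.42% of all genes, the 2 being Pfkfb1 and Pgam2. AGAACA, a steroid hormone response half-site, occurred in 7 of 17 lower and 1 of 6 higher members, against 18.2% of all genes. The GC box GGGCGG occurred in 12 of 17 lower and 2 of 6 higher members, against 35.4% of all genes. TATAAA was in 1 lower and 0 higher members, against 14.3% of all genes, and TCAGGTT, the MEF3 core, in 0 and 1, against 4.07%. In the window of each gene with the most CpG sites, their number had a median of 17 in lower members and 15 in higher members. The median was 10 in tested members that were not called and 6 in all genes. Both hypoxia cores and the GC box contain a CpG site. A gene counted if any of its windows matched, and the 30 members had 48 windows where all 27025 genes had 32851. The shares were matched neither for CpG sites nor for windows. Whether members differ from genes alike in both was not tested. Genes with several starts had several windows, CACGTG counts as an E-box and as ACGTG, and these counts carry no test.

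Among genes that feed glycolysis, take its products or regulate it, 7 of 8 lists had more lower than higher genes by edgeR, and the pentose phosphate pathway had more higher ones. Over the 8 lists, 38 of 79 tested genes were lower and 13 higher, where 18.1% and 16.5% of all genes were called and the median of all genes was 0.01. These counts are a description. With library totals alone these counts were 16 and 40. Glucose entry had 2 lower and 0 higher of 5 tested, median log2 fold change -0.13, or 2 lower and 3 higher with library totals. Slc2a4 (GLUT4), the insulin-responsive glucose transporter, fell 4.53 times (adjusted p = 1.01e-05) and Slc2a3 (GLUT3) fell from 113 ± 9.48 to 45.0 ± 2.65 CPM, 2.52 times (adjusted p = 3.76e-05). Slc2a8 had a log2 fold change of 0.32 and did not pass (adjusted p = 0.0641). The glycogen branch had 9 lower and 2 higher of 13 tested, median log2 fold change -0.74, or 4 lower and 5 higher with library totals. Pygm, muscle glycogen phosphorylase, fell from 12765 ± 1127 to 4815 ± 560.0 CPM (SD, n = 3 each), and Pgm2, a phosphoglucomutase, fell from 1654 ± 93.7 to 534 ± 69.3 CPM. Their falls were 2.65 and 3.10 times (adjusted p = 9.26e-05 and 4.29e-05). Other glycolysis enzymes had 4 lower and 1 higher of 7 tested, median log2 fold change -1.48, or 4 lower and 3 higher with library totals. Among them Bpgm, which makes the bisphosphoglycerate that lowers the oxygen affinity of haemoglobin, fell 3.09 times (adjusted p = 3.64e-05), and Ldhd, the D-lactate dehydrogenase, fell 2.80 times (adjusted p = 0.000101).

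Other lactate and pyruvate transport had 3 lower and 1 higher of 7 tested, median log2 fold change -0.47, or 2 lower and 3 higher with library totals. Both subunits of the mitochondrial pyruvate carrier fell, Mpc1 from 143 ± 16.8 to 71.2 ± 3.89 CPM (2.00 times, adjusted p = 0.000220) and Mpc2 from 289 ± 19.2 to 134 ± 11.8 CPM (2.16 times, adjusted p = 0.000108). Their rows carry the older symbols Brp44l and Brp44. Bsg (basigin), the chaperone that brings MCT1 and MCT4 to the membrane, fell from 501 ± 31.5 to 303 ± 21.8 CPM, 1.66 times (adjusted p = 0.000621), and was not called with library totals (log2 fold change -0.00798, adjusted p = 0.935). Pyruvate dehydrogenase and its kinases had 7 lower and 2 higher of 12 tested, median log2 fold change -0.68, or 2 lower and 4 higher with library totals. Pdp1, the phosphatase that activates the complex, fell 3.48 times (adjusted p = 9.70e-06), and the subunits Dld and Pdhx fell 1.80 and 1.72 times (adjusted p = 0.000157 and 0.000110). With library totals Dld and Pdhx were not called, at -0.13 and -0.06 (adjusted p = 0.208 and 0.439). The malate-aspartate shuttle had 3 lower and 1 higher of 7 tested, median log2 fold change -0.22, or 0 lower and 4 higher with library totals. Its Mdh2, Slc25a11 and Got1 fell by 0.65, 0.58 and 0.48 on the log2 scale (adjusted p = 0.000963, 0.00207 and 0.00630) and had log2 fold changes of 0.07, 0.13 and 0.24 with library totals. The pentose phosphate pathway, which branches off after hexokinase and supplies NADPH and ribose, had 1 lower and 4 higher of 8 tested, median log2 fold change 0.36, or 0 lower and 7 higher with library totals. Pgd, which makes NADPH, rose from 24.6 ± 2.31 to 41.1 ± 3.14 CPM (adjusted p = 0.000891) and Taldo1 (transaldolase) rose 1.25 times (adjusted p = 0.0252). The Taldo1 call was lost without WT mouse 2 or 3 or 113Q mouse 2 or 3 (adjusted p = 0.0648, 0.0736, 0.0692 and 0.0917) and in a test against a fold of 1.2 (0.276). It was also lost without the 3 libraries with epithelial transcripts, at a log2 fold change of 0.19. Rpia, the ribose phosphate isomerase, fell 1.71 times (adjusted p = 0.000728). With library totals Rpia was at -0.06 and not called (adjusted p = 0.645).

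Transcription factors known for glycolytic genes and their regulators had 9 lower and 2 higher of 20 tested, median log2 fold change -0.33, or 2 lower and 11 higher with library totals. Egln1, the oxygen-sensing hydroxylase that marks HIF for degradation, fell 1.83 times (log2 fold change -0.88, SE 0.09, adjusted p = 0.000282). Mlxipl (ChREBP), a carbohydrate-responsive factor, fell 1.93 times (log2 fold change -0.95, SE 0.11, adjusted p = 0.000349). With library totals Egln1 and Mlxipl were at -0.16 and -0.23 and not called (adjusted p = 0.142 and 0.0592). Hif1a, chosen after its values were seen, had a log2 fold change of 0.18 that did not pass (adjusted p = 0.147).

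Markers of other cells in the muscle moved with some of these results, and their part was not tested. All 7 endothelial markers were lower, with sums of 469, 508 and 392 CPM in the WT mice and 273, 284 and 277 in the 113Q mice. With library totals their log2 fold changes lay between -0.13 (Cdh5) and 0.42 (Tek), and 4 of the 7 were above 0. Smooth muscle and pericyte markers had 1 of 7 lower (Des, which fibres also express) and 1 higher (Acta2, at 46.4, 126 and 184 CPM in the WT mice and 867, 566 and 425 in the 113Q mice) in edgeR. The Acta2 call was lost in some settings, with adjusted p of 0.000180 to 0.447. Chosen after their values were seen, Myh11, Tagln and Cnn1 were also above WT in every 113Q mouse, with log2 fold changes of 2.22, 1.69 and 3.01 that did not pass (adjusted p = 0.111, 0.0826 and 0.0952). The remaining markers of this list, Rgs5 and Pdgfrb, had overlapping groups. Their log2 fold changes were 0.10 and -0.20 and did not pass (adjusted p = 0.795 and 0.459). Fibroblast markers (0 of 6 called) summed to 737, 1059 and 1382 CPM in the WT mice and 1511, 1136 and 1213 in the 113Q mice. Macrophage and myeloid markers (0 of 7 called) summed to 74.3, 80.8 and 90.4 CPM in the WT mice and 94.8, 77.7 and 84.9 in the 113Q mice, with no separation of the groups. Schwann cell and nerve markers had 1 of 6 tested higher and sums of 111, 84.8 and 115 CPM in the WT mice and 106, 72.5 and 79.3 in the 113Q mice. That was Sox10, at 2.99, 2.74 and 2.69 CPM in the WT mice and 3.35, 7.10 and 8.18 in the 113Q mice, highest in the 2 113Q libraries with epithelial transcripts, and its adjusted p ranged from 0.000717 to 0.701 over all settings, highest without the epithelial libraries. Neutrophil and erythroid markers had 0 of 4 tested called in each list, with sums of 1.64 to 3.67 CPM and 53.8 to 115 CPM. In each list, no marker with a row was at 0 in all 6 libraries. Among the 18 lower members, 113Q mouse 1 was the lowest 113Q mouse for 15 and WT mouse 2 the highest WT mouse for 12. The exons of 13 of the 31 genes overlap another gene in GENCODE M21, and whether the counting used strand is not given in the sources used here.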

How the data were processed

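Messenger RNA of the LA/BC muscle of 3 WT and 3 113Q mice was read from a deposited table of estimated counts, with 1 column per mouse and 27131 rows. Per the submitters' processing notes, the authors used Cuffdiff 2.1.1 for these estimated counts, with Bowtie2 2.1.0 and TopHat2 2.0.9 on mm10, and also Cufflinks, cutadapt and FastQC 0.10.0. Whether counting used strand, and with which annotation, is not given in the sources. Estimates divide reads between overlapping genes and near-identical copies.

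Groups follow the genotype label. Between 5.38% and 5.96% of values per library were fractional, and all were rounded. The whole table was fitted with edgeR 4.0.16 (R 4.3.3): filterByExpr with a minimum count of 10, scaling by TMM, and the two-sided quasi-likelihood F test with robust estimation, adjusted by Benjamini-Hochberg over 16960 genes. SE was taken as the size of the log2 fold change over the root of F. The common biological coefficient of variation was 24.2%. Ratios of paired genes used counts plus 0.5. Levels per kilobase used merged exons of GENCODE M21, on the same assembly as mm10. Promoter windows came from RefSeq (GRCm38.p6). The scripts were tested on simulated data. No pair of libraries agreed within counting noise. All members were named, with up to 3 genes with the smallest p of each context list and up to 2 of the highest mean of each marker list; some of these are not reported here. The members and lists were chosen with earlier results of these data known.

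Alternatives were DESeq2 1.42.0, voom of limma 3.58.1, RLE and upper-quartile factors, library totals, other filters, fits without robust estimation or without rounding, a replicate block, each mouse left out in turn, an adjusted p of 0.01, a test against a fold of 1.2, leaving out the 3 libraries with epithelial transcripts or members that overlap another gene, and for ratios a prior count of 2 or none. Basic coding lengths and a count without Eno1 were added after seeing the data.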

Additional observations from a re-analysis of the deposited data

How the results depend on the processing

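With library totals alone, 14 members were lower and 10 higher, and the context lists had 16 lower and 40 higher. Among the members and the context genes named above, that scaling turned the log2 fold changes of Gpi1 (0.12), Pkm (0.19), Pfkfb4 (0.43), Got1 (0.24), Mdh2 (0.0652) and Slc25a11 (0.13). It also turned those of Hk3 (0.19), Pfkfb2 (0.72), Aldoc (0.41), Ldhb (0.18) and Gpd2 (0.67), which had not passed. Other context genes called lower turned as well, among them Phka1 (0.14), Epas1 (0.27) and Mef2d (0.45). With library totals Pfkfb4, Pfkfb2, Gpd2 and Eno2 were called higher (edgeR adjusted p = 0.00166, 9.35e-05, 0.000694 and 0.0107). Against a fold of 1.2, 3 members and 5 context genes were higher, and at an adjusted p of 0.01, 3 context genes were. Without the 3 libraries with epithelial transcripts, which leaves 1 113Q mouse assumed to vary like the WT mice, 17 members were lower and 3 higher, and 5 context genes were higher. Without members that overlap another gene, 10 of 17 tested were lower. Leaving out 1 mouse at a time gave 16 to 19 lower members, 5 higher members, 34 to 38 lower and 7 to 12 higher context genes, with 7 higher without WT mouse 1, 113Q mouse 2 or 113Q mouse 3, and a difference in the share of counts between -2.85 and -2.61 percentage points. A log2 fold change near 0 that had not passed changed sign for Pfkfb2 (0.00269 with a 1 CPM filter, 0.0196 with no filter, 0.0415 with upper-quartile factors, 0.0137 without the epithelial libraries, -0.0206 to 0.0200 leaving out 1 mouse), Aldoc (0.23 in voom, 0.16 without the epithelial libraries, -0.69 to 0.43 leaving out 1 mouse) and Gpd2 (0.0258 in voom, -0.12 to 0.0780 leaving out 1 mouse). No member that was called changed direction in any setting other than library totals. With the replicate block, 16 members were lower and 4 higher, and 37 and 8 context genes. Correlations of same-numbered mice were 0.20, 0.24 and -0.27, and not every mouse correlated best with its own number. With 3 mice per group these values cannot decide whether the numbers pair the mice. Counts under 1 CPM limit Hk3, Fbp1 and Aldoc.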
